A study of Mus musculus with 144 samples.

Results

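These results compare wild-type mouse liver in the early light with the early dark, in total RNA. The 12 libraries are those that the labels place at zeitgeber time 2 (ZT2) and ZT14, with 6 libraries at each time, out of 144 in the series. Zeitgeber time counts hours from lights on, so under the 12 h of light and 12 h of dark used here ZT2 lies 2 h into the light and ZT14 lies 2 h into the dark. All mice were male C57BL/6J with free access to food and water, and no gene was altered in the animals of either group. No age is given, and nothing in the labels says that the libraries came from separate animals, so p-values measure the spread between these libraries. RNA was read by QuantSeq, a 3′ mRNA sequencing method whose reads come from transcript ends at the poly(A) tail. The series also holds nuclear and polysomal RNA of wild-type liver and total RNA of Bmal1-/- liver, each at 6 times of day, and these are used here only beside the ZT2 and ZT14 values.

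The liver clock is a loop of transcription. BMAL1 (encoded by Arntl) pairs with CLOCK or NPAS2, binds E-box sequences and switches on the Period and Cryptochrome genes, whose proteins later shut the pair off. The same pair drives the nuclear receptors REV-ERBα and REV-ERBβ (Nr1d1 and Nr1d2), which repress Arntl, Npas2 and Nfil3 through elements that they share with the ROR receptors. It also drives the PAR bZIP factors DBP and TEF, which carry the rhythm on to enzymes of drug, lipid and heme metabolism through D-box sequences. Mice are active and eat mostly in the dark, so ZT2 follows the feeding phase and ZT14 opens it.

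Total gene counts ran from 5316601 to 9646257 per library at ZT2 and from 6606105 to 9120158 at ZT14. The hepatocyte marker Alb lay between 45011 and 61430.5 CPM (a gene's counts scaled to a common library total) at ZT2 and between 14701 and 59356 CPM at ZT14. Of 8 pancreatic acinar markers, 6 had no count in any of the 12 libraries. In bulk RNA, fewer cells of a type and less RNA per cell cannot be told apart. The first 3 replicates of each time also differed from the last 3 along the third principal component, which held 12.0% of the variance and had scores above 0 in replicates 1 to 3 and below 0 in replicates 4 to 6 at both times.

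Both libraries numbered 4 stood apart from their groups. Replicate 4 of ZT2 lay alone on the first principal component, which held 37.6% of the variance, at a score of -108 against -0.664 to 27.2 in the other 11. In that library 268 genes were at least 4-fold below and 19 at least 4-fold above every other library (0.5 CPM added), against 0 to 11 such genes in any other. It had 15392 genes with a count, where the others had 16965 to 18395. Rpl28, a ribosomal protein gene, was at 1.32 CPM in it and at 59.1 CPM or more in the others, and Gapdh, an enzyme of glycolysis, was at 0. Its mean distal site usage (the average share of a gene's counts at its most 3′ site) was 58.0%, against 40.7% to 45.5% elsewhere.

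Replicate 4 of ZT14 lay with the ZT2 libraries on the second component (15.5% of the variance), at -30.9. The other 5 ZT14 libraries lay between 17.8 and 28.2 there, and the ZT2 libraries other than replicate 4, which was at 18.9, lay between -25.4 and -15.2. Of 22 core clock genes, 5 in this library lay within the range of the other 5 ZT14 libraries, where those libraries, each against its 4 fellows, had 7 to 17. Within the ranges of the other wild-type times lay 8 at ZT2 (5 libraries) and 9, 7, 13 and 13 at ZT6, ZT10, ZT18 and ZT22 (6 libraries each, whose ranges are wider by construction). Npas2 was at 6.06 CPM in it and at 0 to 0.220 CPM in its 5 fellows, while Nr1d1 was at 0.454 CPM against 2.41 to 7.92, Nr1d2 at 3.94 against 43.3 to 60.2 and Ciart at 0 against 3.52 to 5.77. The nuclear library of the same number and time had the same features, with Npas2 at 6.65 CPM against at most 0.630, Nr1d2 at 1.33 against 9.11 to 25.9 and Ciart at 0. Among polysomal libraries at ZT14 they were found in replicate 3, where Npas2 was at 14.35 CPM against 0 in the other 5. The library keeps its label here, as the library labelled ZT14 replicate 4, and results are given with all 12 libraries and with the remaining 10.

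**Figure D1:**
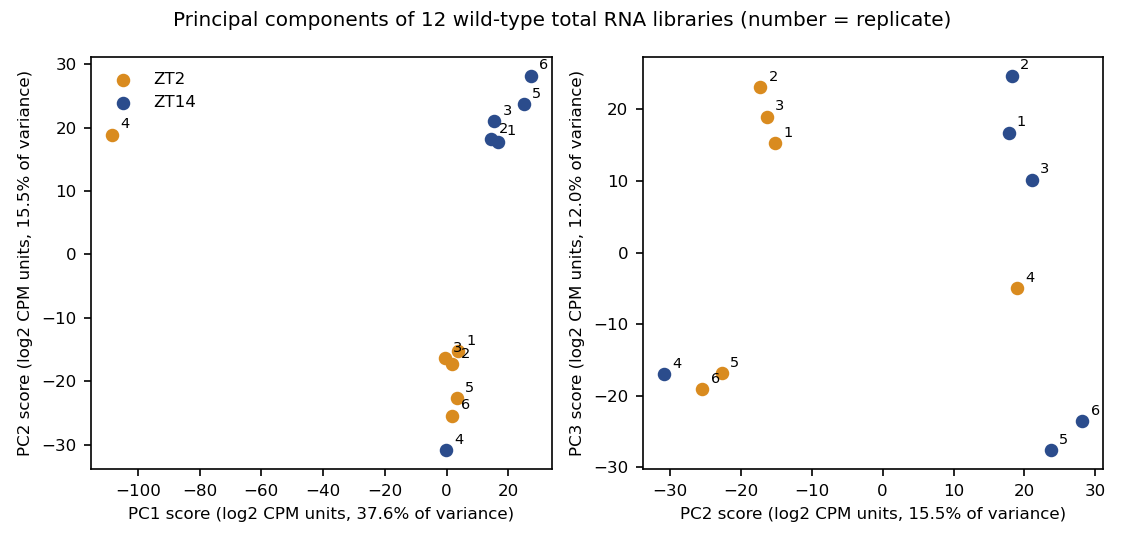
Principal component scores of the 12 libraries, on log2 CPM, with components 1 and 2 on the left and 2 and 3 on the right. Each point is a library, coloured by time and numbered by replicate. ZT2 replicate 4 sits at -108 on component 1, and the library labelled ZT14 replicate 4 sits at -30.9 on component 2, beside ZT2 libraries.

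**Figure D2:**
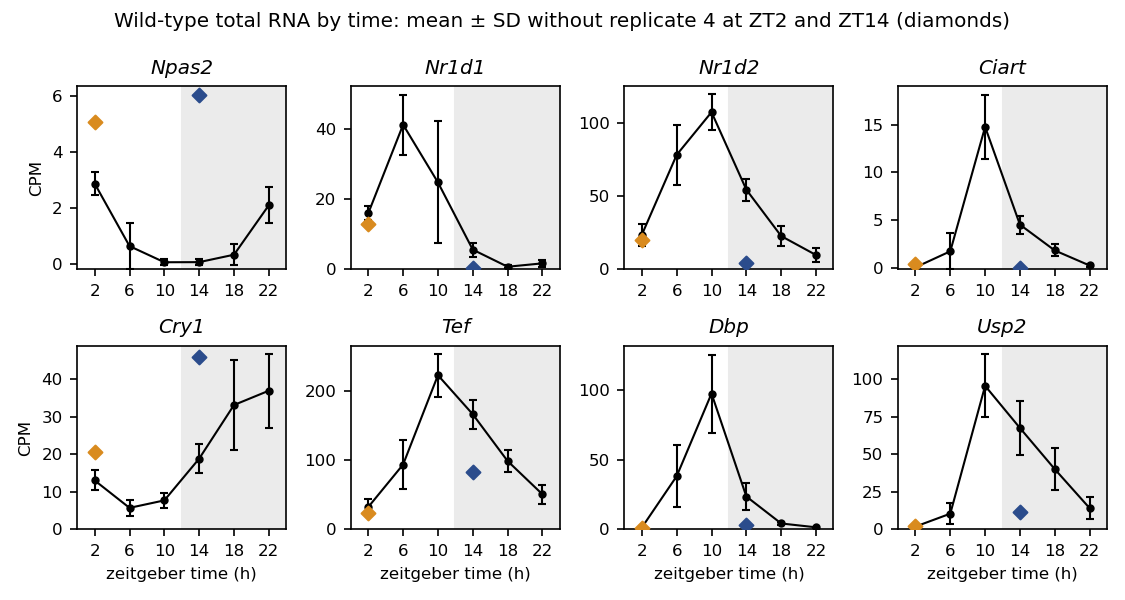
Levels of 8 clock genes over the day in wild-type total RNA, in CPM against zeitgeber time in hours, as mean ± SD of 6 libraries (5 at ZT2 and ZT14). The shaded area is the dark phase, and diamonds are replicate 4 at ZT2 and ZT14. Npas2 in the ZT14 diamond (6.06 CPM) lies above every mean of the day, and Nr1d2 (3.94 CPM) below every mean.

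With all 12 libraries, 207 of 12016 genes differed between the times (1.72%), 125 higher (1.04%) and 82 lower (0.682%) at ZT14, by edgeR's quasi-likelihood test with a Benjamini-Hochberg adjusted p under 0.05. A 2-fold or larger change was seen in 124, of which 83 were higher and 41 lower. Without both libraries numbered 4, the count was 782 of 12115 (6.45%), 404 higher (3.33%) and 378 lower (3.12%). Of the 207 genes, 204 were also called among the 782, all with the same sign. The 10 libraries are all among the 12, so this overlap was largely set in advance and is no separate check. Leaving out the library labelled ZT14 replicate 4 alone gave 560 genes and leaving out ZT2 replicate 4 alone gave 247. Leaving out any 1 of the other 10 libraries gave 64 to 131. Of the 50 genes that the naming rule picked and that passed with 12 libraries, 21 passed in each of the 12 leave-one-out fits, and these include Usp2, Dbp, Tef, Ciart, all 3 Period genes and Nfil3. The highest adjusted p of the other 29 over these fits lay between 0.0564 and 0.113. Among those 29, Nr1d1, Cldn1, Hsph1, Angptl4, Pde9a and Aqp8 passed in 1 of the 12 fits, and Arntl, Alas1 and Cirbp in 2. CPM of the 6 and 6 libraries did not overlap in 214 genes (1.78%), and those of 5 and 5 in 868 (7.16%). The median log2 change of all genes was -0.01 with 12 libraries.

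Genes called in replicates 1 to 3 were also followed in the later replicates, which share no library with them. Replicates 1 to 3 alone called 393 genes, 197 higher and 196 lower at ZT14. Followed in replicates 5 and 6, the 193 higher genes that had a value there had a median log2 change of 1.02 and kept their sign in 99.0% of cases, and the 190 lower ones had a median of -1.07 with 97.9%. In replicates 4 to 6, with both libraries that stood apart, the medians were 0.85 (97.9% of 193 with the same sign) and -0.69 (92.3% of 194). Over all genes, 49.2% were above 0 in replicates 5 and 6. Replicates 4 to 6 together called 0 genes, with 845 at an unadjusted p under 0.05, and replicates 5 and 6 called 723.

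Of the 22 core clock genes, 9 rose and 3 fell at ZT14 with 12 libraries, and 12 rose and 5 fell with 10. Their median log2 change was 0.83, or 0.70 with 10 libraries. Of all genes tested, 1.72% were called with 12 libraries and 6.45% with 10, shares that apply beside each list below. The library labelled ZT14 replicate 4 was left out after its clock genes were seen to lie apart and it was seen beside ZT2 libraries on the second component. Leaving it out favours calls of genes that differ between the times. The p-values and counts of called genes with 10 libraries, for clock genes and all others here and below, do not allow for that choice. Changes are given as log2 of ZT14 over ZT2, and 3 values at a time are the lowest, median and highest library. A gene that rose or fell was higher or lower at ZT14 than at ZT2, which says nothing of its course in between. Arntl, which encodes the activator BMAL1, was at 4.87, 12.8 and 14.7 CPM at ZT2 and 1.003, 2.78 and 8.17 CPM at ZT14. It fell by 1.70 (SE 0.38, adjusted p 0.0371), and ZT2 replicate 1 (4.87 CPM) lay below ZT14 replicate 1 (5.48 CPM) and the library labelled ZT14 replicate 4 (8.17 CPM). Clock was at 41.0, 49.9 and 73.5 CPM at ZT2 and 23.2, 32.8 and 52.1 CPM at ZT14, and did not pass with 12 libraries at -0.69 (SE 0.19, adjusted p 0.0992) but passed with 10 at -0.67 (SE 0.14, adjusted p 0.00674). Npas2, the partner that can stand in for CLOCK, was at 2.37 to 3.35 CPM at ZT2 and 0 to 0.220 CPM at ZT14 in the 10 libraries. In these its change was -5.07 (SE 0.52, adjusted p 2.08e-05), a size that depends on the prior count because 3 of the 5 ZT14 libraries had no count, and with all 12 it was -1.80 (SE 0.91, adjusted p 0.378), where the library labelled ZT14 replicate 4 held the most Npas2 of the 12.

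All 3 Period genes and Cry2, whose proteins repress the loop, were higher at ZT14 than at ZT2. Per1 was at 0.316, 0.832 and 1.69 CPM at ZT2 and 5.77, 8.02 and 13.2 CPM at ZT14, and no library of either time overlapped the other. It rose by 3.30 (SE 0.33, adjusted p 0.000202). Per2 was at 3.54, 8.21 and 11.7 CPM at ZT2 and 31.5, 56.7 and 71.1 CPM at ZT14, without overlap, and rose by 2.71 (SE 0.27, adjusted p 0.000202). Per3 was at 0.311, 1.28 and 3.11 CPM at ZT2 and 2.42, 14.9 and 19.5 CPM at ZT14, with overlap, and rose by 3.29 (SE 0.50, adjusted p 0.00697), where ZT2 replicate 2 (3.11 CPM) lay above the library labelled ZT14 replicate 4 (2.42 CPM). Cry2 was at 6.40, 10.2 and 11.9 CPM at ZT2 and 13.8, 15.7 and 19.2 CPM at ZT14, without overlap, and rose by 0.71 (SE 0.15, adjusted p 0.0314). For Cry1 the change was 0.65 (SE 0.27, adjusted p 0.271) with 12 libraries and 0.53 (SE 0.19, adjusted p 0.116) with 10, and neither passed.

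Ciart, a repressor of CLOCK and BMAL1 also called Chrono, had the largest fitted change among the core genes. ZT2 replicates 1, 5 and 6 had no count, and the highest ZT2 library had 0.376 CPM, while ZT14 libraries held 3.52 to 5.77 CPM except the library labelled replicate 4, which was at 0. The fitted change was 4.96 (SE 0.84, adjusted p 0.00985), which depends on the prior count since so many libraries are at or near 0. Bhlhe40 (DEC1), an E-box repressor, was at 9.18, 13.9 and 40.02 CPM at ZT2 and 38.5, 50.4 and 56.4 CPM at ZT14, with overlap, and rose by 1.44 (SE 0.29, adjusted p 0.0262). Its relative Bhlhe41 had at most 3.76 CPM and passed with 10 libraries and not with 12, at 1.89 (SE 0.48, adjusted p 0.027).

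The receptor arm of the clock split in direction. Nr1d1 was at 12.8, 15.6 and 17.7 CPM at ZT2 and 0.454, 5.59 and 7.92 CPM at ZT14, without overlap, and fell by 1.71 (SE 0.39, adjusted p 0.0418). Nr1d2 was higher at ZT14 in 5 of 6 libraries, at 14.04 to 32.1 CPM at ZT2 and 43.3 to 60.2 CPM at ZT14 without replicate 4. It passed in those 10 libraries, at 1.21 (SE 0.18, adjusted p 0.000533) against 0.99 (SE 0.44, adjusted p 0.313) with 12. Nr1d2 itself was among the genes that set the left-out ZT14 library apart. Nfil3, a repressor at D-boxes, was at 26.3, 30.7 and 39.6 CPM at ZT2 and 11.4, 13.5 and 15.1 CPM at ZT14, without overlap, and fell by 1.32 (SE 0.15, adjusted p 0.000491). Both libraries numbered 4 lay within their groups.

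The PAR bZIP activators Dbp and Tef rose at ZT14. Dbp was at 0.207, 0.678 and 2.27 CPM at ZT2 and 3.03, 18.6 and 38.6 CPM at ZT14, without overlap, and rose by 4.205 (SE 0.59, adjusted p 0.00607). The library labelled ZT14 replicate 4 (3.03 CPM) was the lowest of its group. Tef was at 19.3, 28.4 and 45.8 CPM at ZT2 and 82.3, 161 and 187 CPM at ZT14, without overlap, and rose by 2.29 (SE 0.24, adjusted p 0.00034). Hlf, the third member, was at 26.2, 34.3 and 57.4 CPM at ZT2 and 44.1, 71.0 and 103 CPM at ZT14 and passed with 10 libraries, at 1.28 (SE 0.16, adjusted p 0.000117), and not with 12, at 0.95 (SE 0.24, adjusted p 0.0585). Among the remaining core genes, the changes of Rora (-0.22) and the kinases Csnk1d (-0.12) and Csnk1e (0.10) did not pass with 12 or 10 libraries.

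**Figure D3:**
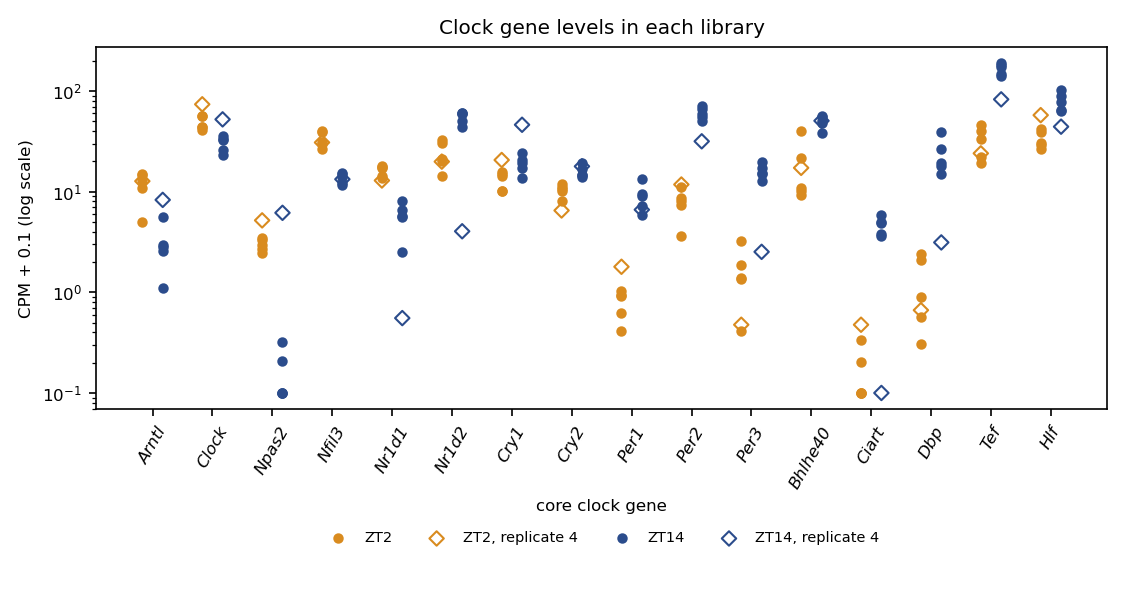
CPM plus 0.1 on a log scale for 16 core clock genes in each of the 12 libraries, ZT2 in orange and ZT14 in blue, with replicate 4 as an open diamond. Per1, Per2, Dbp, Tef, Nr1d1 and Nfil3 do not overlap between the times, and for Npas2, Nr1d2 and Ciart the ZT14 diamond lies apart from the 5 other ZT14 points.

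The promoters of 4 of these genes are shown because they hold the letters of elements that the arms of the clock are known to use. Each runs over the 250 bases before the gene's start, 5′ to 3′ on the gene's strand, from RefSeq on build GRCm38.p6. Capitals mark the letters CACGTG (E-box), TTATGTAA (D-box) or TAGGTCA (ROR element), searched on both strands, so that the ROR element of Nfil3 reads as its complement. Ciart (chr3:95882229-95882478, reverse strand) holds 3 E-boxes, whose first bases lie 116, 58 and 44 bases before the start. Per1 (chr11:69098699-69098948, forward strand) holds 1 E-box, 166 bases before, while the window at the other RefSeq start of Per1 (69099902 to 69100151) holds none of the 3 motifs. Per3 (chr4:151044666-151044915, reverse strand) holds 2 D-boxes, 205 and 158 bases before, and Nfil3 (chr13:52981040-52981289, reverse strand) holds 1 ROR element, 12 bases before.
Ciart: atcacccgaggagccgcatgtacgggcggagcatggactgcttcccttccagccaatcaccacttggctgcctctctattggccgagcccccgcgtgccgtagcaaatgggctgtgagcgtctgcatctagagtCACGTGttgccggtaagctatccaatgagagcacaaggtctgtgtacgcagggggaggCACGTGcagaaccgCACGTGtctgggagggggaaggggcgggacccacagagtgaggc
Per1: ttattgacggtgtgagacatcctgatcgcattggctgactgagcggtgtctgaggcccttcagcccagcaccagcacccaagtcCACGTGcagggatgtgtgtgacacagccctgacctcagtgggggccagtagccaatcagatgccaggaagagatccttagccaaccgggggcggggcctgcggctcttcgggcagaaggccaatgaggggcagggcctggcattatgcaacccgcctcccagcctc
Per3: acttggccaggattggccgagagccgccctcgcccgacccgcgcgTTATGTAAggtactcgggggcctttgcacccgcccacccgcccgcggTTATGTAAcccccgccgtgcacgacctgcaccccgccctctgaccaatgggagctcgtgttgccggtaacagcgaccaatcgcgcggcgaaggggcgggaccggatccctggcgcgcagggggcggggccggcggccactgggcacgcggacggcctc
Nfil3: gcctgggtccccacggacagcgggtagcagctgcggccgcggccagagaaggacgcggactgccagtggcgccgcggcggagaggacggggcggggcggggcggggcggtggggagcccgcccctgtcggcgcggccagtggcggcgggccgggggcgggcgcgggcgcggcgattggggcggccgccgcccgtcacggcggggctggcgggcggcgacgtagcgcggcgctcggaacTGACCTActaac

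Over all 8537 tested genes with a promoter in the table, 10.04% held an E-box, 0.574% a D-box and 2.31% a ROR element. Of the 93 higher genes with a promoter, 18 (19.4%) held an E-box, 6 (6.45%) a D-box and 2 (2.15%) a ROR element. Of the 64 lower genes, 9 (14.06%) held an E-box, 0 a D-box and 6 (9.38%) a ROR element. Among the 295 higher and 280 lower genes called with 10 libraries the shares were closer to those of all tested genes, with E-boxes in 14.9% and 11.8%, D-boxes in 2.71% and 0.357% and ROR elements in 2.37% and 3.57%. These counts of letters are a description and were not tested. Usp2, Dbp, Arntl and Nr1d1 hold none of the 3 motifs in this window.

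Of 15 genes known as outputs of the clock, 8 rose and 1 fell with 12 libraries, and 10 rose and 2 fell with 10. Their median log2 change was 1.73 with 12 libraries and 2.19 with 10. Usp2, which encodes a deubiquitinase, had the largest rise of the genes called with 12 libraries. It was at 1.27, 1.67 and 2.39 CPM at ZT2 and 11.4, 55.7 and 87.7 CPM at ZT14, without overlap, and rose by 5.02 (SE 0.45, adjusted p 0.000202), and the lowest ZT14 value is again that of the library labelled replicate 4. Wee1, a kinase that holds back mitosis, was at 1.68, 2.42 and 3.01 CPM at ZT2 and 4.24, 12.7 and 15.0 CPM at ZT14, without overlap, and rose by 2.30 (SE 0.29, adjusted p 0.00184). Noct (nocturnin), a rhythmic protein of the deadenylase family, was at 0.236, 1.61 and 3.59 CPM at ZT2 and 5.15, 10.7 and 15.3 CPM at ZT14, without overlap, and rose by 2.72 (SE 0.46, adjusted p 0.00985).

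Alas1, the rate-limiting enzyme of heme synthesis, was at 25.3, 39.8 and 191 CPM at ZT2 and 59.8, 459.9 and 707 CPM at ZT14, with overlap, and rose by 2.70 (SE 0.62, adjusted p 0.0443). Its groups overlap only through both libraries numbered 4, since ZT2 replicate 4 held 191 CPM and the library labelled ZT14 replicate 4 held 59.8, and with the other 10 its change was 3.73 (SE 0.23, adjusted p 3.45e-07). Por, the electron donor of microsomal cytochrome P450 enzymes, rose by 2.00 (SE 0.33, adjusted p 0.00985), with 10 libraries at 59.4 to 119 CPM at ZT2 and 352 to 491 CPM at ZT14. Replicate 4 held 91.4 CPM of Por at ZT2 and 85.7 CPM at ZT14, so that the groups overlap. Nampt, the rate-limiting enzyme of NAD salvage, rose by 1.41 (adjusted p 0.0239), Lpin1, a phosphatidate phosphatase, by 2.20 (adjusted p 0.00643) and Upp2, a uridine phosphorylase of liver, by 2.04 (adjusted p 0.0122), all by edgeR. Pnkd fell, at -0.71 (adjusted p 0.0218). These 4 were named after their values were seen. So was Elovl3, a fatty acid elongase, which passed with 10 libraries and not with 12, at -3.36 (SE 0.33, adjusted p 0.000116), with values of 372 to 573 CPM at ZT2 and 24.2 to 85.0 CPM at ZT14 there. Replicate 4 held 1149 CPM of Elovl3 at ZT2 and 413 CPM at ZT14.

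Heat shock genes encode chaperones and are induced by heat. Of 18 listed, 5 rose and 0 fell with 12 libraries, 10 rose and 0 fell with 10, and 17 had a change above 0 with each. The median log2 change was 0.58 with 12 libraries and 0.59 with 10. Of all genes tested, 49.1% had a change above 0 with 12 libraries. The inducible Hspa1b (HSP70) was at 3.35, 4.80 and 9.97 CPM at ZT2 and 13.6, 20.4 and 35.7 CPM at ZT14, without overlap, and rose by 2.03 (SE 0.31, adjusted p 0.00697). Its near-identical neighbour Hspa1a, named after its values were seen, was at 2.33 (SE 0.57, adjusted p 0.0512), and reads of the pair may be split between them. Hspa8, the constitutive relative, was at 51.6, 79.3 and 91.9 CPM at ZT2 and 130.0, 144 and 153 CPM at ZT14, without overlap, and rose by 0.87 (SE 0.15, adjusted p 0.00985). Hsph1 (1.22, adjusted p 0.0429) and Dnajb1 (1.03, adjusted p 0.0286), co-chaperones of the HSP70 system, rose as well. Cirbp, an RNA-binding protein gene induced by cold, was at 9.85, 11.6 and 14.9 CPM at ZT2 and 4.91, 7.99 and 8.48 CPM at ZT14, without overlap, and fell by 0.76 (SE 0.17, adjusted p 0.0378). Its cold-induced relative Rbm3 went the other way and passed with 10 libraries and not with 12, at 0.60 (SE 0.17, adjusted p 0.0407).

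Of 14 glucocorticoid targets, 7 rose and 0 fell, with 12 and with 10 libraries. Their median was 1.31 with 12 libraries and 1.28 with 10. Fkbp5, a co-chaperone of the glucocorticoid receptor, was at 3.42, 7.10 and 12.3 CPM at ZT2 and 11.1, 39.5 and 49.1 CPM at ZT14, with overlap, and rose by 2.22 (SE 0.36, adjusted p 0.00985). The metallothioneins Mt1 and Mt2, which bind zinc and copper, rose by 3.33 (SE 0.64, adjusted p 0.0222) and 3.28 (SE 0.67, adjusted p 0.0278). Mt1 was at 3.39, 12.2 and 32.9 CPM at ZT2 and 18.9, 137 and 324 CPM at ZT14, so ZT2 replicate 2 (32.9 CPM) and replicate 5 (28.0 CPM) lay above the library labelled ZT14 replicate 4 (18.9 CPM) and the others did not overlap. Per1 and Lpin1 also belong to this list. Those that did not pass include Dusp1, a phosphatase of MAP kinases, with a change of 0.26 (SE 0.31, adjusted p 0.729), and Pck1, the gluconeogenic enzyme (0.72, adjusted p 0.265).

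Of 19 glucose and glycogen genes, 4 rose and 0 fell with 12 libraries, and 6 rose and 1 fell with 10. Slc37a4, the glucose 6-phosphate transporter of the endoplasmic reticulum, was at 40.9, 48.2 and 64.0 CPM at ZT2 and 64.3, 128 and 141 CPM at ZT14, without overlap, and rose by 1.23 (SE 0.20, adjusted p 0.00944). Pfkfb3 (2.30, adjusted p 0.019) and Pfkfb1 (0.87, adjusted p 0.0442), which set the level of the glycolytic activator fructose 2,6-bisphosphate, rose. With 10 libraries, glycogen synthase Gys2 was at 1.23 (SE 0.12, adjusted p 1.56e-05) and the glycogen targeting subunit Ppp1r3c at -2.26 (SE 0.22, adjusted p 2.94e-05), both named after their values were seen.

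Of 20 lipogenesis genes, 1 rose and 0 fell with 12 libraries, and 3 rose with 10, with Thrsp at 2.34 (SE 0.53, adjusted p 0.0315) and Dgat2 at 0.65 (SE 0.13, adjusted p 0.00579), named after their values were seen. Of 22 genes of fasting and fat oxidation, Angptl4, an inhibitor of lipoprotein lipase, rose by 1.09 (SE 0.26, adjusted p 0.0443) and Plin2, which coats lipid droplets, fell by 0.81 (SE 0.16, adjusted p 0.0244). Plin2 was at 264, 331 and 437 CPM at ZT2 and 165, 184 and 277 CPM at ZT14, and ZT14 replicate 3 (277 CPM) reached above ZT2 replicate 5 (264 CPM). Of 25 cholesterol synthesis genes, 1 rose and 0 fell with 12 libraries. Over all genes tested, 1.72% were called with 12 libraries and 6.45% with 10. The median of the cholesterol list was 0.11 with 12 libraries and -0.24 with 10, where 0 rose and 2 fell. The 2 are Hmgcs1, at -1.61 (SE 0.18, adjusted p 3.80e-05) with 10 libraries and -0.51 (SE 0.52, adjusted p 0.686) with 12, and Sc5d at -0.52 (adjusted p 0.034). The library labelled ZT14 replicate 4 held 1495 CPM of Hmgcs1 against 147 to 225 in its 5 fellows.

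Cyp7a1, the rate-limiting enzyme of bile acid synthesis, was at 21.3, 38.2 and 50.03 CPM at ZT2 and 77.0, 139.7 and 241 CPM at ZT14, without overlap, and rose by 1.97 (SE 0.29, adjusted p 0.00643). Nr0b2, which encodes SHP, a receptor that represses Cyp7a1, was at 33.0, 40.3 and 43.7 CPM at ZT2 and 11.4, 15.7 and 35.4 CPM at ZT14, with overlap, and fell by 1.14 (SE 0.23, adjusted p 0.0218). These were the 2 called of 17 with 12 libraries, and with 10 there were 2 higher and 3 lower, among them the bile salt export pump Abcb11 at -0.97 (SE 0.11, adjusted p 7.76e-05), named after its values were seen. Of 26 xenobiotic genes, 3 rose and 0 fell, and with 10 libraries 6 rose and 0 fell. They include Alas1, Por and the receptor CAR (Nr1i3), which was at 19.9, 46.1 and 64.4 CPM at ZT2 and 70.2, 111 and 120.3 CPM at ZT14, without overlap, and rose by 1.15 (SE 0.24, adjusted p 0.0271).

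Of 27 amino acid and urea genes, 1 fell and 0 rose with 12 libraries, and 4 fell and 1 rose with 10. Hal, which starts the breakdown of histidine, was at 201, 231 and 363 CPM at ZT2 and 94.6, 119 and 179 CPM at ZT14, without overlap, and fell by 1.10 (SE 0.20, adjusted p 0.0122). The 10 libraries also gave falls of Cbs (-1.07, adjusted p 0.000432) and Cth (-0.96, adjusted p 0.0117), the 2 enzymes of transsulfuration, and of Asns (-1.98, adjusted p 0.00729), asparagine synthetase, all named after their values were seen. Of 19 genes of insulin, IGF and growth hormone signalling, Onecut1 was the only one called with 12 libraries, and with 10 there were 5 higher and 3 lower. Irs2, the insulin receptor substrate, was among the lower at -2.46 (SE 0.42, adjusted p 0.00509) and Cish, a feedback inhibitor of growth hormone signalling, among the higher at 2.93 (SE 0.63, adjusted p 0.0245), both named after their values were seen.

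**Figure D4:**
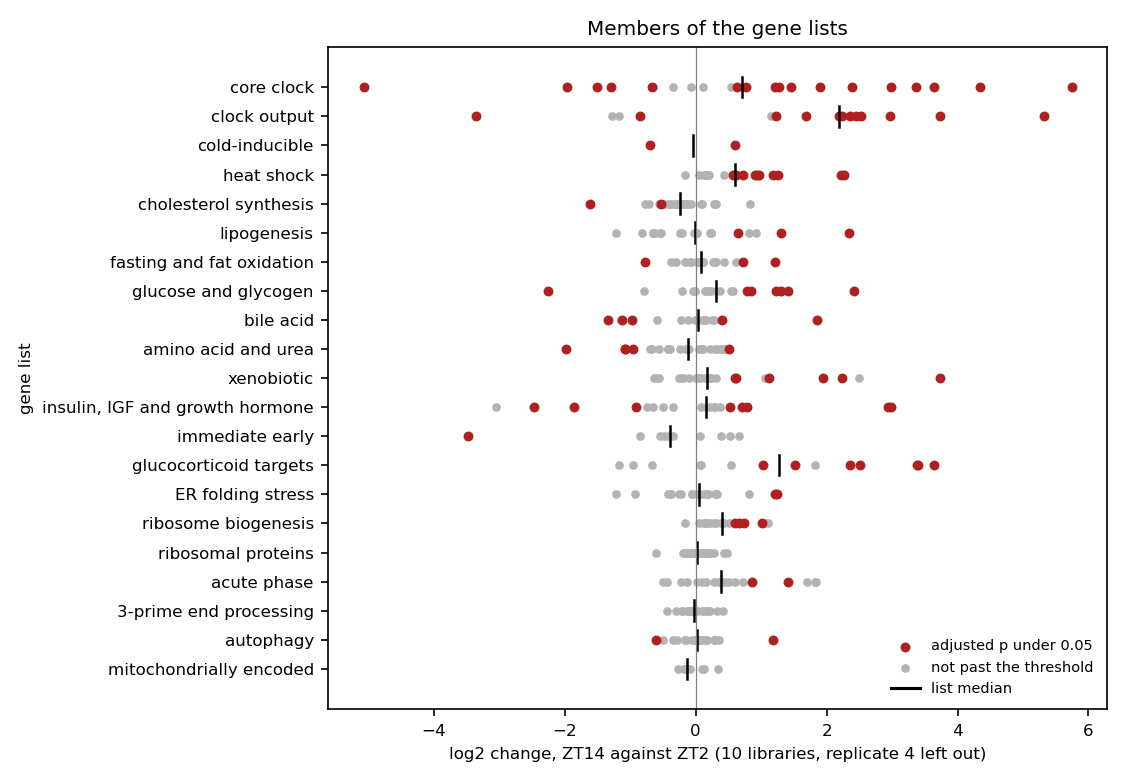
Log2 change from ZT2 to ZT14 of every tested member of 21 gene lists, in the 10 libraries without replicate 4. Red points have an adjusted p under 0.05, grey points do not, and a black bar marks the list median. Core clock, clock output, heat shock and glucocorticoid targets hold most of the red points to the right, with medians of 0.70, 2.19, 0.59 and 1.28.

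Single genes were called in several other lists with 12 libraries. Herpud1, a gene of endoplasmic reticulum protein degradation, rose by 1.22 (SE 0.27, adjusted p 0.0371), the only one of 21 folding stress genes called, and the list's median was 0.01. Polr1a, the largest subunit of RNA polymerase I, was at 6.21, 9.13 and 12.3 CPM at ZT2 and 13.5, 15.5 and 17.5 CPM at ZT14, without overlap, and rose by 0.71 (SE 0.15, adjusted p 0.0289). It was the only one of 22 ribosome biogenesis genes called, while all 22 had a change above 0 and the median was 0.49. With 10 libraries 4 were called, all higher, 21 had a change above 0 and the median was 0.40. Bnip3, a receptor of mitochondrial autophagy, was at 76.6, 93.4 and 113 CPM at ZT2 and 122, 212 and 244 CPM at ZT14, without overlap, and rose by 1.04 (SE 0.18, adjusted p 0.00985), the only one of 22 autophagy genes.

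No member was called with 12 libraries among 79 ribosomal protein genes, 22 genes of 3′ end processing, 9 mitochondrially encoded genes, 20 acute phase genes or 10 immediate early genes, by edgeR. The members with the most counts were at -0.05 (SE 0.15, adjusted p 0.898) for Rplp1, -0.01 (SE 0.20, adjusted p 0.983) for Pabpc1, -0.35 (SE 0.18, adjusted p 0.385) for mt-Nd4 and -0.32 (SE 0.17, adjusted p 0.382) for Fgb. With 10 libraries 2 acute phase genes rose, 1 immediate early gene fell, and the first 3 lists still had no call. The fallen gene is Egr1, a zinc finger factor, at -3.48 (SE 0.66, adjusted p 0.013), named after its values were seen. With 12 libraries the medians were 0.15 for ribosomal proteins, -0.02 for 3′ end processing, -0.23 for mitochondrial genes, 0.31 for acute phase and -0.26 for immediate early genes. With 10 libraries they were 0.02, -0.03, -0.13, 0.38 and -0.38 in the same order.

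Markers of the other cells that liver can hold were checked for the same contrast. None of the marker genes tested for hepatocytes (7), Kupffer cells (12), sinusoidal endothelium (12), stellate cells (10), cholangiocytes (2), lymphocytes (3), neutrophils (2), red cells (5) or adipocytes (3) passed with 12 libraries, and with 10 libraries 2 passed, Sox9 and Col3a1. The members with the most counts had changes of -0.25 for Alb (hepatocyte), 0.42 for Cd5l (Kupffer cell), 0.02 for Ptprb (endothelium), -0.21 for Dcn (stellate cell), -1.21 for Igkc (lymphocyte), -0.85 for S100a8 (neutrophil) and -0.21 for Hba-a2 (red cell). Car3, which holds most of the counts of the adipocyte list, was at -0.46. Without ZT2 replicate 1, S100a8 was at 1.12, again without passing. Among 15 summed or whole-library values compared by exact 2-sided permutation of 6 against 6, the smallest p was 0.0152 (adjusted 0.211) for summed lymphocyte markers, at 15.6 to 78.6 CPM at ZT2 and 7.12 to 25.8 CPM at ZT14. Summed cholangiocyte markers had a p of 0.0281 (adjusted 0.211), at 42.2 to 62.8 CPM and 16.3 to 67.1 CPM. Without the libraries numbered 4 neither sum overlapped, at 28.4 to 78.6 and 7.12 to 25.8 CPM for lymphocyte and 42.2 to 58.3 and 16.3 to 27.9 CPM for cholangiocyte markers, each with an exact p of 0.00794 (adjusted 0.0595). In that comparison of 5 against 5 this is the smallest p that permutations can give. Sox9, which holds most of the cholangiocyte sum, passed with 10 libraries at -1.51 (SE 0.20, adjusted p 0.000285). Their part in the results above was not tested. The share of counts in mitochondrial genes was 14.5% to 18.6% at ZT2 and 14.04% to 16.9% at ZT14, with an exact p of 0.502.

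The 10 largest rises and falls that met the naming rule hold further genes of liver physiology. Onecut1 among them is also in the insulin, IGF and growth hormone list. Nrg4, a secreted ligand of ErbB4, was at 1.66, 1.83 and 2.63 CPM at ZT2 and 1.06, 13.01 and 16.03 CPM at ZT14, with overlap, and rose by 2.46 (SE 0.44, adjusted p 0.0126). Onecut1 (HNF6), a transcription factor of hepatocytes, was at 14.37, 21.3 and 50.6 CPM at ZT2 and 25.9, 133 and 239 CPM at ZT14, with overlap, and rose by 2.397 (SE 0.51, adjusted p 0.0347), and the gene model Gm20649, at 2.44 (SE 0.52, adjusted p 0.0326), had values close to those of Onecut1 in each library, so that the pair may share reads. Cldn1, a tight junction protein, was at 40.5, 47.1 and 142 CPM at ZT2 and 4.204, 12.2 and 36.8 CPM at ZT14, without overlap, and fell by 2.22 (SE 0.49, adjusted p 0.0373). Both libraries numbered 4 were the highest of their groups for Cldn1. Steap3, a ferrireductase, fell by 1.93 with 12 libraries and by 1.27 with 10 (adjusted p 0.0397 and 0.00124), and ZT2 replicate 4 held 65.1 CPM against 10.4 to 21.7 in its fellows.

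Gdf15, a stress-induced hormone, was at 7.26, 13.5 and 22.9 CPM at ZT2 and 2.70, 4.82 and 8.02 CPM at ZT14, with overlap, and fell by 1.52 (adjusted p 0.0155, edgeR). Hes1, a target of Notch, fell by 1.34 (adjusted p 0.0274), Tfpi2, a protease inhibitor, by 1.34 (adjusted p 0.0131), Pde9a, a cGMP phosphodiesterase, by 1.34 (adjusted p 0.0443) and 8430408G22Rik by 1.88 (adjusted p 0.0289). Aqp8, a water channel, fell by 1.97 (adjusted p 0.0499) and did not pass with 10 libraries, at -2.10 (SE 0.59, adjusted p 0.0793).

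The authors also counted reads per polyadenylation site, and the same contrast was made for each site. With 12 libraries 82 of 19840 sites differed in level (0.413%), 62 higher (0.312%) and 20 lower (0.101%) at ZT14, and 67 of them lie in 51 genes. With 10 libraries the count was 635 of 20070 (3.16%), 321 higher (1.6%) and 314 lower (1.56%). The 484 of these that were given to a gene lie in 353 genes. Of those genes 83 had 2 or more called sites, and in 0 did the called sites go in opposite directions. The 3 sites of Usp2 on chromosome 9 (44093854 to 44093938, 44095298 to 44095314 and 44095536 to 44095629) rose by 4.84, 5.45 and 5.06 (adjusted p 0.000687, 0.00139 and 0.00326). Both sites of Tef on chromosome 15, at 81826641 to 81826690 and 81826734 to 81826871, rose as well, by 2.57 and 2.30 (adjusted p 0.0377 and 0.00107). The single sites of Per1 (chromosome 11, 69109855 to 69109960) and Nfil3 (chromosome 13, 52967207 to 52967428) changed by 3.24 and -1.36.

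Usage, the share of a site in its gene's counts, was tested at a given gene total. It differed at 0 of 11167 sites in 3589 genes (0.0%) by edgeR's quasi-likelihood test, with 440 at an unadjusted p under 0.05 and a smallest adjusted p of 0.952. By edgeR's splicing test it was 0 sites, with 281 at an unadjusted p under 0.05, and with 10 libraries it was 0 sites, with 499 and a smallest adjusted p of 0.203. The median absolute difference in mean share was 2.74 percentage points. The smallest adjusted p with 10 libraries belonged to Pnkd, named after its values were seen. Its upstream site on chromosome 1 (74287198 to 74287456, plus strand) made up 16.6% ± 3.26 (SD, n = 6) of Pnkd counts at ZT2 and 31.7% ± 10.6 at ZT14, where the library labelled replicate 4 had 15.3% and the others 27.1% to 46.9%. The level of that site had a log2 change of 0.07 in 10 libraries (adjusted p 0.916), while the main downstream site (74353516 to 74353692) fell by 1.19 (adjusted p 0.000562).

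The Bmal1-/- libraries at the same times lack the clock gene Arntl by their label. Arntl was at 9.16 CPM ± 2.45 (SD, n = 6) at ZT2 and 11.5 CPM ± 2.398 at ZT14 in them. The deleted part is not given in the labels, and a 3′ tag outside it checks nothing. In Bmal1-/- total RNA 0 of 12091 genes differed between ZT14 and ZT2 (0.0%) by edgeR, with 441 at an unadjusted p under 0.05. The 125 genes higher at ZT14 in the wild type had a median log2 change of 1.22 in that contrast and, for the 119 with a value, 0.07 in Bmal1-/-, with the same sign in 78 (65.5%, against 50.4% of all genes). The 82 lower genes had -1.003 and, for 79, -0.11, with the same sign in 57 (72.2%, against 49.6% of all genes). The wild-type medians come from the contrast in which the genes were chosen, which makes them larger. The change itself differed between the genotypes in 21 of 12117 genes (0.173%), 5 more positive (0.0413%) and 16 more negative (0.132%) in Bmal1-/-, and in 263 of 12173 (2.16%) with the 10 wild-type libraries.

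Among the called genes averaging at least 50 counts per library, Usp2 showed the largest such difference, at -4.49 (SE 0.60, adjusted p 0.000565, edgeR). Its Bmal1-/- means were 6.43 CPM ± 2.83 (SD, n = 6) at ZT2 and 9.60 CPM ± 5.36 at ZT14. Dbp differed by -4.34 (SE 0.66, adjusted p 0.00198), with Bmal1-/- means of 2.82 CPM ± 0.955 and 2.62 CPM ± 0.92. Fkbp5 differed by -3.20 (SE 0.59, adjusted p 0.0245), where its Bmal1-/- mean went from 12.4 CPM ± 8.84 to 6.66 CPM ± 1.99. The other members of the core clock list that differed with 12 libraries were Tef, Cry2 and all 3 Period genes. Per2 in Bmal1-/- was at 22.9 CPM ± 5.51 and 32.8 CPM ± 4.23, between its wild-type medians of 8.21 and 56.7 CPM. For Hspa1b the change was 1.01 (SE 0.29, adjusted p 0.981) in Bmal1-/-, and its difference from the wild type was -1.02 (SE 0.44, adjusted p 0.408), which did not pass.

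Nuclear and polysomal RNA of wild-type liver were set beside total RNA in the same way. In nuclear RNA 69 of 11279 genes were called (0.612%), or 154 (1.37%) without the nuclear library labelled ZT14 replicate 4. In polysomal RNA 51 of 10624 were called (0.480%), or 203 (1.89%) without the polysomal library labelled ZT14 replicate 3. The 125 genes higher in total RNA had median changes of 1.04 in nuclear and 0.97 in polysomal RNA, with the same sign in 118 of the 118 with a nuclear value and 112 of the 118 with a polysomal value. Over all genes 51.0% of nuclear and 48.9% of polysomal changes were above 0. The 82 lower genes had medians of -0.79 and -0.86, with the same sign in 82 of 82 and 76 of 77. The fractions may come from the same livers, which the labels do not say.

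The change differed between nuclear and total RNA in 0 of 11936 genes (249 at an unadjusted p under 0.05) and between polysomal and total RNA in 0 of 11565 (405), by edgeR. Usp2 rose by 4.199 (SE 0.39, adjusted p 1.33e-05) in nuclear and 4.49 (SE 0.40, adjusted p 1.28e-05) in polysomal RNA. Cyp7a1 rose by 1.87 (SE 0.24, adjusted p 0.000823) and 1.84 (SE 0.30, adjusted p 0.00388) in the same order. Arntl, which fell in total RNA, was at -0.94 (SE 0.38, adjusted p 0.476) in nuclear RNA, where it did not pass, and at -2.70 (SE 0.46, adjusted p 0.00515) in polysomal RNA. The nuclear library labelled ZT14 replicate 4 held the most nuclear Arntl of that time (53.4 CPM against 6.64 to 44.1) and polysomal replicate 3 held none (others 0.974 to 4.15). Without these Arntl was at -1.28 (SE 0.36, adjusted p 0.102) in nuclear and -2.53 (SE 0.41, adjusted p 0.000978) in polysomal RNA. Among the other contrasts of times 12 h apart in wild-type total RNA, ZT18 against ZT6 called 665 of 11799 genes (5.64%) and ZT22 against ZT10 called 752 of 12048 (6.24%), each with 12 libraries.

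**Figure D5:**
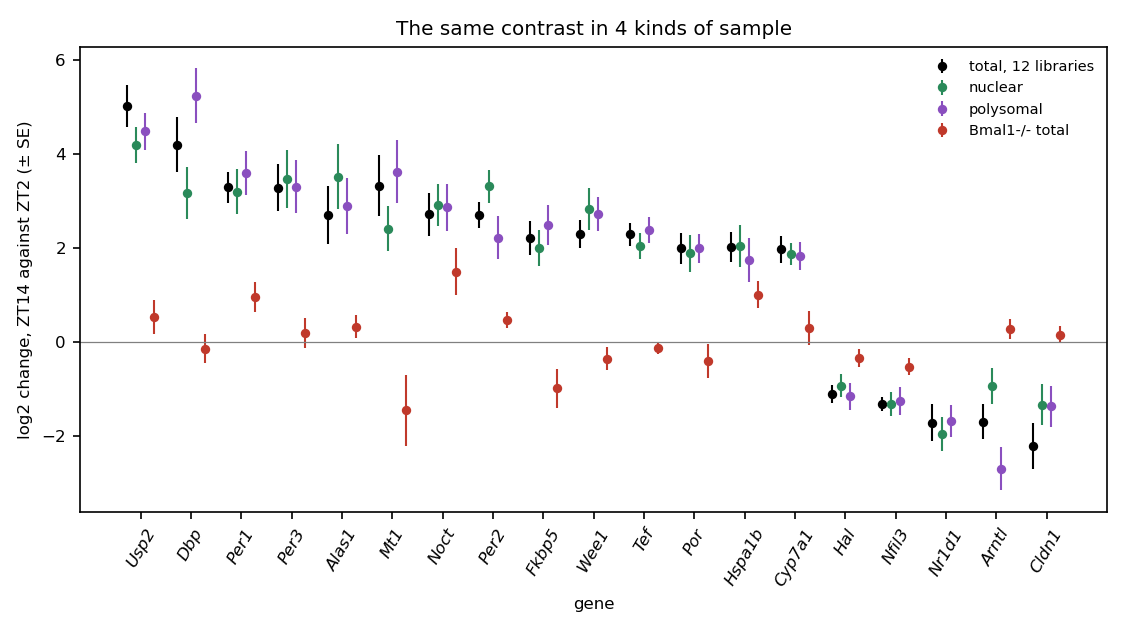
Log2 change from ZT2 to ZT14 with its SE for 19 genes called in wild-type total RNA, in total RNA (12 libraries, black), nuclear (green) and polysomal (purple) RNA of the wild type and total RNA of Bmal1-/- (red). Genes were chosen on the black points, and Nr1d1 has no red point because it had too few counts. For Usp2 the wild-type changes lie between 4.199 and 5.02, and the Bmal1-/- change is 0.54.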

How the data were processed

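The 12 libraries were taken as wild-type total RNA at ZT2 and ZT14 from their sample titles, which also give the replicate numbers. Per the labels, 2 µg of TRIzol-extracted, DNase-treated total RNA went into QuantSeq libraries. The authors deposited raw read counts per gene and per polyadenylation site, 1 column per library, and a list of 29199 filtered sites whose deposited score column was not used. Per the submitters' processing notes STAR 2.4.2a, edgeR and HOMER were used with builds mm10 and GRCm38.p5, in roles not given in the sources used here. Columns without a sample numbered 0.

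CPM scales counts by the library total, with no further normalization. Features averaging 10 or more counts per library were tested with edgeR 4.0.16 (R 4.3.3, robust quasi-likelihood F test, TMM, Benjamini-Hochberg, 0.05), with DESeq2 1.42.0 as an alternative, after the scripts were tested on simulated data. Of the filtered sites, 21787 were given to 7333 genes on the same strand, up to 1000 bp past the end, by RefSeq GRCm38.p6. Usage used the log of the gene total plus 0.5 as offset, for sites with at least 5% of genes with 2 or more such sites and 50 counts. Whole-library values were compared by exact permutation (SciPy 1.17.1). Within groups, 0 of 30 pairs of libraries were identical, and chi-square over degrees of freedom was at least 11.2. Named were all tested core clock genes, and the 10 largest rises and falls among called genes with at least 50 counts and the same direction in replicates 1 to 3 and 4 to 6. Also named were up to 4 called members of each other list (or, where none passed, the one with the most counts) and 3 genes per interaction. Usage would have added 6 genes but called none. Of the 74 genes picked 51 had a promoter sequence. Results for some of these genes are not reported here. Members, lists and rules were chosen with earlier results of these data known. Alternatives covered normalization, filters, test, libraries, sets of replicates, the replicate number and each library left out. Those that leave out both libraries numbered 4, or treat the set of replicates as a factor, were chosen after seeing the data.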

Additional observations from a re-analysis of the deposited data

Results flagged for a closer look

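Among 170 groups of 6 values looked at, 32 held a library whose gap to its nearest fellow took more than 62.5% of the group's range. For a single group, chance gives about 1 in 20. The groups come from the same libraries, so a library that stands apart can mark many of them, and the 32 cannot be set against that rate. Of the 32, 26 were 1 of the libraries numbered 4. In ZT2 replicate 4 the high values were those of Alas1 (191 CPM), Cldn1 (142), Onecut1 (50.6), Gm20649 (45.7), Npas2 (5.08), Steap3 (65.1), Tfpi2 (42.7), Dcn, a matrix proteoglycan (311), Pabpc1 (473), Fgb (10054), Car3, a carbonic anhydrase (10387), and mt-Nd4 (93530). Its summed adipocyte markers stood at 10411 CPM, nearly all Car3, and its mean distal usage at 58.0%. That sum follows the level of Car3 and is not a measure of adipocytes, and the listed marker Lep had no count. In the library labelled ZT14 replicate 4 the high values were those of Npas2 (6.06 CPM), Cry1 (46), Cldn1 (36.8), Pde9a (12.1) and Sox9 (51.9), with summed cholangiocyte markers at 67.1. The low ones were Nr1d2 (3.94), Nrg4 (1.06), Por (85.7), Slc37a4 (64.3) and Wee1 (4.24), with summed hepatocyte markers at 45507.

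The other 6 lay elsewhere. ZT2 replicate 1 had the highest Csnk1e (7.36 CPM), Igkc, an immunoglobulin light chain (53.6), S100a8, a neutrophil protein (30.8), and summed neutrophil markers (71.3). ZT14 replicate 1 had the highest S100a8 (16.1) and ZT14 replicate 3 the highest Plin2 (277).

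The change from ZT2 to ZT14 differed between Bmal1-/- and wild type by -4.49 for Usp2, -4.34 for Dbp and -3.20 for Fkbp5 (edgeR interaction, adjusted p 0.000565, 0.00198 and 0.0245), each less positive in Bmal1-/-.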

How the results depend on the processing

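None of the 50 genes picked by the naming rule and called with 12 libraries changed sign under any setting in which it was tested. The rule took the largest rises and falls only where replicates 1 to 3 and 4 to 6 went the same way. Most settings also share libraries with the fit that called the genes. The outcome for the 50 was thus largely set by their choice and is no separate check. Of the 24 picked but not called, 8 changed sign, none past the threshold. These were Alb (0.078), Car3 (0.11) and Dcn (0.025) with replicates 1 to 3, Hba-a2 with replicates 4 to 6 (0.26) and 5 and 6 (0.20), Pabpc1 with no filter (0.0087) and replicates 1 to 3 (0.11), Rplp1 with replicates 4 to 6 (0.050) and 5 and 6 (0.057), and Ptprb with DESeq2 on 10 libraries (-0.031), 34 libraries (-0.039), 10 (-0.030), replicates 1 to 3 (-0.0079) and 5 and 6 (-0.078) and the set as a factor in 10 (-0.032). With 1 library left out at a time, Hba-a2 ranged from -0.41 to 0.031, Pabpc1 from -0.17 to 0.13, Ptprb from -0.039 to 0.070, Rplp1 from -0.10 to 0.010 and S100a8 from -2.21 to 1.12 (the last without ZT2 replicate 1). The count of 207 genes became 513 with DESeq2, 1023 with DESeq2 on 10 libraries, 647 with all 36 wild-type total RNA libraries in the fit, 788 with 34, 782 with 10, 393 with replicates 1 to 3, 0 with replicates 4 to 6, 723 with replicates 5 and 6, and 1111 with the set of replicates as a factor in 10 libraries. It was 204 with median-ratio size factors, 191 with no filter and 234 with the set as a factor. Leaving out each library in turn gave 64 to 560 genes, 19 to 316 sites (153 without ZT2 replicate 4, 19 to 27 without any 1 of the other 10) and 0 sites in usage. The 82 sites became 651 with 36 libraries, 705 with 34, 635 with 10, 252 with replicates 1 to 3, 0 with replicates 4 to 6, 350 with replicates 5 and 6, and 926 with the set as a factor in 10 libraries. The Bmal1-/- difference was 263 genes with 10 wild-type libraries. Nuclear calls were 154 without 1 library and polysomal calls 203. The cause of these shifts was not tested. Depth leaves genes under 10 counts untested.

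The shared replicate numbers were checked for pairing. Same-numbered libraries of ZT2 and ZT14 correlated at -0.000 to 0.338, and 3 of 12 libraries correlated best with their own number. The mean correlation was 0.127 for the same number and -0.024 for other numbers. Same-numbered total and nuclear libraries correlated at 0.014 to 0.341 at ZT2 and at 0.229 to 0.632 at ZT14. What same-numbered libraries share beyond the number was not tested. With the replicate block the counts were 274 genes, 76 sites and 0 sites in usage, 12 for the Bmal1-/- difference, and 0 for the nuclear and polysomal differences. The block of number within time also gave 0 for nuclear RNA. The plain replicate block gave 0 genes in Bmal1-/-, 154 in nuclear and 139 in polysomal RNA, 1036 for ZT18 against ZT6 and 1121 for ZT22 against ZT10.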

Other observations

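Several growth and signalling genes, chosen after their values were seen, passed with 10 libraries and not with 12. Bcl6, a repressor of growth hormone targets, was at -1.85 (SE 0.40, adjusted p 0.0217), with 29.6 to 76.9 CPM at ZT2 and 6.25 to 20.4 CPM at ZT14. Tsku, a secreted hepatokine, was at 2.45 (SE 0.25, adjusted p 3.28e-05), with 3.07 to 9.43 CPM at ZT2 and 26.4 to 38.5 CPM at ZT14. Cyp2a5, which hydroxylates coumarin, was at 1.95 (SE 0.18, adjusted p 1.29e-05), with 66.0 to 129 CPM at ZT2 and 290.4 to 430.3 CPM at ZT14, and its near-identical relative Cyp2a4 may share its reads. Cpt1a, the entry enzyme of mitochondrial fat oxidation, was at 0.72 (SE 0.12, adjusted p 0.00161), with 78.6 to 120.3 CPM at ZT2 and 146 to 181 CPM at ZT14. Saa4, a constitutive serum amyloid gene, was at 1.41 (SE 0.19, adjusted p 0.000252), with 112 to 202 CPM at ZT2 and 324 to 565 CPM at ZT14.

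Replicate 4 at ZT2 was at 23.5 CPM for Tsku and 298 CPM for Cyp2a5, above its 5 fellows for both. The library labelled ZT14 replicate 4 was at 17.6 and 75.8 CPM, below its 5 fellows for both, and at 57.2 CPM for Bcl6 and 22.7 CPM for Irs2, above its 5 fellows.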
